A study of Cavia porcellus with 12 samples.

Results

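The cardiac myosin genes carry miRNAs in their introns, and 3 of their precursors are described here, hsa-mir-208a, hsa-mir-208b and hsa-mir-499a, in guinea pig ventricular cardiomyocytes. A table entry was taken as a member when its name ended exactly in one of these precursors, which gave 3 of the 289 precursors with a sequence entry. They accounted for 50 of 2449 sequence entries over the 3 tables, 19 under hsa-mir-208a, 18 under hsa-mir-208b and 13 under hsa-mir-499a. Entries whose start positions in the precursor lay more than 15 bases apart were counted as different arms (5p and 3p).

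The study exposed isolated heart cells to doxorubicin (DOX), an anthracycline that damages the heart, or to its vehicle DMSO, and sequenced small RNA. The 12 libraries fall in 4 groups of 3: DMSO for 1 h, 10 µM DOX for 1 h, DMSO for 22 h and 10 µM DOX for 22 h. Of the 3 deposited tables, the 1 h table compares DOX with vehicle after 1 h, the 22 h table does so after 22 h, and the DOX time table sets the late against the early DOX group. Each one gives 1 mean of normalized counts per entry over both of its groups, where an entry is 1 sequence under 1 human precursor. The means of the 22 h and DOX time tables proved to hold 1 library a side, so their levels and shares rest on 2 libraries each, and how many lie behind the 1 h means is unknown.

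The myosin heavy chain genes encode the motor of the cardiac thick filament. miR-208a lies in the gene of the alpha chain, miR-208b in that of the beta chain and miR-499 in that of the related Myh7b. Together they take part in setting which myosin a muscle cell makes, and they are used in blood as markers of heart muscle injury. The 3p arm of both miR-208 precursors and the 5p arm of miR-499 are known as the arms that enter the silencing complex, and the opposite arm is usually found at lower levels.

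The leading entries of these 3 arms shared a run of 5 bases, shown in capitals, and the sequences are given to show where their reads begin and end around it. Each name gives the first and last base in the precursor.
miR-208a-3p, 45 to 64: AAGACgagcaaaaagcttgt
miR-208b-3p, 47 to 66: AAGACgaacaaaaggtttgt
miR-208b-3p, 46 to 65: tAAGACgaacaaaaggtttg
miR-499a-5p, 34 to 52: AAGACttgcagtgatgttt
miR-499a-5p, 34 to 53: AAGACttgcagtgatgttta
The opposite arms do not hold the run. Their leading entries are printed to show which arm is meant.
miR-208a-5p, 10 to 29: gcttttggcccgggttatac
miR-208b-5p, 12 to 31: gctttttgctcgaattatgt
miR-499a-3p, 70 to 89: acatcacagcaagtctgtgc
miR-499a-3p, 71 to 90: catcacagcaagtctgtgct

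Counted from 1 at the 5′ end of the miR-208a-3p entry, the miR-208b-3p sequence differed over 19 shared bases by G8A, A14G and C16T. The same entry and the leading miR-499a-5p entry differed at 8 of 19 bases, the first of them G6T and A7T, directly after the shared run. None of the 50 entries had a sequence that also stood under another precursor, so no read of a member was listed under a further precursor. The let-7 entries were compared with their known mature ends. Of the let-7 signal in entries beginning near the known 5′ end, 100% in the 1 h table, 100% in the 22 h table and 99.996% in the DOX time table began 2 bases inside it. The leading bases of an entry were therefore not read as the seed, and only positions relative to other entries were compared. The longest entry had 21 bases in every table.

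miR-499a-5p was by far the most abundant product of the group. Its summed mean was 419357 normalized counts in the 1 h table, 369391 in the 22 h table and 482748 in the DOX time table. This was 7.14%, 7.73% and 8.04% of each table's total, and hsa-mir-499a ranked 4 among 243, 224 and 287 precursors with signal. When precursors were ranked by their most abundant entry, hsa-mir-499a stood at 4, 2 and 4. Tables were normalized separately, so levels were set side by side only as shares of a table's total, which summed to 5874566, 4776593 and 6005178 normalized counts. In bulk RNA, fewer cells of a type and less RNA per cell cannot be told apart.

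miR-208b-3p came next at a much lower level. Its summed mean was 5818 normalized counts in the 1 h table, 6604 in the 22 h table and 7055 in the DOX time table, or 0.0990%, 0.138% and 0.117% of the table totals. miR-208a-3p had summed means of 1754, 2156 and 2098, or 0.0299%, 0.0451% and 0.0349%. Thus miR-499a-5p exceeded miR-208b-3p 72.1-fold, 55.9-fold and 68.4-fold in the 3 tables. miR-208b-3p in turn exceeded miR-208a-3p 3.32-fold, 3.06-fold and 3.36-fold. As precursors, hsa-mir-208b held ranks 70, 53 and 55 and hsa-mir-208a ranks 83, 77 and 78.

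The opposite arms differed strongly between members. miR-499a-3p had summed means of 1772, 2686 and 2734 normalized counts, which was 0.421%, 0.722% and 0.563% of hsa-mir-499a. miR-208b-5p was the rarest arm, with 72.1, 62.2 and 82.5 normalized counts, or 1.22%, 0.933% and 1.16% of hsa-mir-208b. miR-208a-5p stood at 997.1, 732.7 and 1118 normalized counts and made up 36.2%, 25.4% and 34.8% of hsa-mir-208a. The ratio of the 3p to the 5p arm was thus 1.76, 2.94 and 1.88 for hsa-mir-208a, against 80.7, 106.2 and 85.6 for hsa-mir-208b. The order of the 3 precursors was the same in all 3 tables. This is partly built in, since the place of the decimal mark at 1 h and 22 h came from the DOX time table, and the 22 h and DOX time tables share a library. A mean over both groups has no spread, so no difference between neighbours or tables could be tested.

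**Figure D1:**
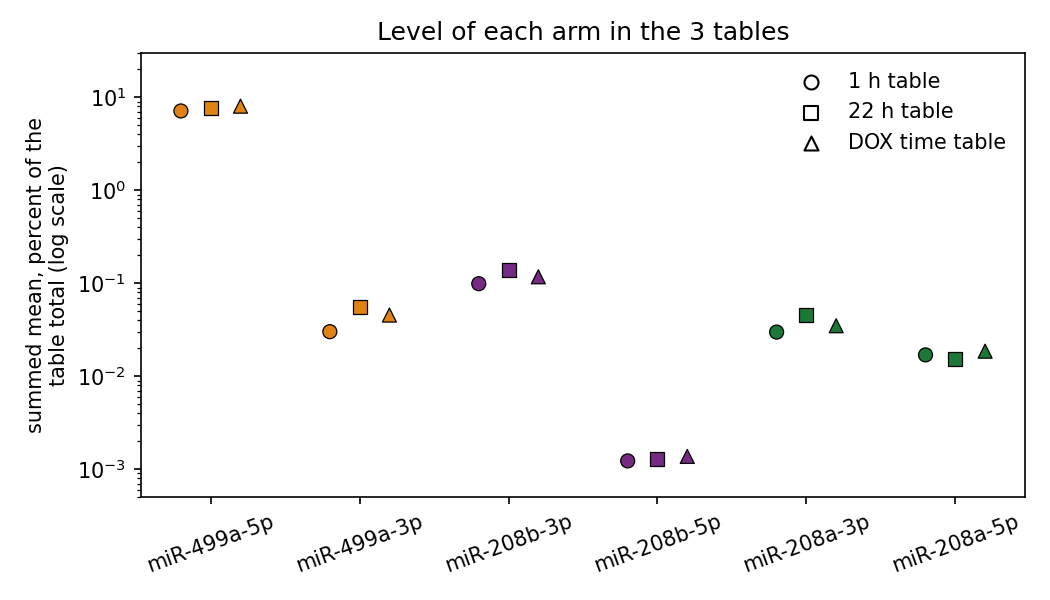
Summed mean of each arm as percent of the table's total (log axis) in the 1 h table (circles), the 22 h table (squares) and the DOX time table (triangles). miR-499a-5p lies at 7.14% to 8.04% and miR-208b-5p at 0.00123% to 0.00137%, with the other 4 arms between 0.0153% and 0.138%.

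The other muscle miRNAs set these levels in context. The miR-1 precursors mir-1-1 and mir-1-2, the most abundant muscle miRNAs, held 9.85% and 10.8% of the 1 h table, 9.94% and 11.01% of the 22 h table and 10.5% and 11.6% of the DOX time table. mir-133a-1 held 2.79%, 3.11% and 3.32%, and mir-133a-2 held 2.79%, 3.11% and 3.32%. Of the signal of each pair, 95.6%, 94.9% and 95.1% for miR-1 and 99.94%, 99.93% and 99.94% for miR-133a was in sequences listed under both precursors, and how their reads were divided is not known. Summed, the miR-1 pair held 20.6%, 20.9% and 22.2% and the miR-133a pair 5.58%, 6.21% and 6.64%. The rank of hsa-mir-499a, which shares no sequence, is thus set against precursors that partly list 1 miRNA more than once. mir-206, known from skeletal muscle, had 319.8, 322.7 and 310.6 normalized counts, below either miR-208 precursor. mir-133b had 822.1, 727.5 and 1012, mir-486-1 had 1063, 845.0 and 1097, and mir-486-2 had 1109, 896.7 and 1137.

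The labelled cell type was compared with markers of other cells. The 7 striated muscle precursors, which take in the 3 members, were all present and held 33.5%, 35.2% and 37.1% of the tables, led by mir-1-2. The 4 without the members held 26.2%, 27.2% and 28.8%. The smooth muscle and pericyte list (mir-143 and mir-145) held 19.4%, 21.0% and 19.8%, nearly all from mir-143, which was the most abundant precursor of each table. The endothelial mir-126 held 4.41%, 3.83% and 3.24%. The 4 fibroblast precursors were all present at 0.389%, 0.285% and 0.276%, led by mir-199a-1, mir-199a-2 and mir-199a-1. Erythroid precursors held 0.00727%, 0.00236% and 0.00273%, led by mir-451a, and myeloid precursors 0.00765%, 0.00600% and 0.00650%, led by mir-142. The neuronal list had 3, 3 and 4 of 6 precursors above 0 and 0.00465%, 0.00363% and 0.00551%, led by mir-9-2, with mir-124-1 and mir-124-3 lacking signal in each table. The liver marker mir-122 had no signal in any table. The part of cell composition in the members' levels was not tested.

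Arms with the most similar pattern were sought among 194 arms outside the group with a summed mean of at least 100 in each table. Likeness was the summed absolute difference, over the 3 tables, of log2 shares centred on their own mean, so it rests on 3 points that share libraries. For miR-499a-5p the closest were mir-187-3p (0.05), mir-22-3p (0.06) and mir-133a-1-3p (0.08). For miR-208a-3p they were let-7i-3p (0.07), mir-338-3p (0.38) and mir-30e-3p (0.38). For miR-208b-3p they were let-7i-3p (0.24), mir-486-2-3p (0.29) and mir-19a (0.30), and for miR-499a-3p let-7i-3p (0.44), mir-210-3p (0.49) and mir-190a-5p (0.63). For miR-208a-5p they were mir-330-3p (0.08), mir-125b-1-3p (0.09) and mir-106a (0.10).

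The means of the 22 h and DOX time tables could be taken apart into whole reads. All 1323 means with a restored decimal mark at 22 h were sums of whole reads from 2 libraries, each weighted by its size factor. The 2369 means above 0 in the DOX time table were read in the same way, also from 2 libraries. The 1052 entries with a single solution at 22 h all fitted 1 library that both tables share, against 132 for the next of the 4 assignments tried. This gave reads in 3 libraries for 1216 entries, and for 34 of the 36 member entries of the 22 h table. The names of predicted miRNAs in the tables name replicate 1 of DOX 22 h in both, of DMSO 22 h in the 22 h table and of DOX 1 h in the DOX time table. By these names the library in common is DOX 22 h (replicate 1), called the shared library, the 22 h partner is DMSO 22 h (replicate 1) and the 1 h partner is DOX 1 h (replicate 1). Over the 1216 entries these libraries had 474736, 440362 and 623625 reads. Abundant entries mostly had several solutions, so the 1216 entries carried 9.57% of the summed means at 22 h. In the 1 h table no such step was found, and no reads could be recovered. The search required every mean to fit, including 15 low means at 1 h whose restored power is uncertain.

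A difference between these libraries has no replicate check. Intervals are exact (Poisson for reads, Clopper-Pearson for shares and ratios) at 95% and cover counting error only. A ratio was scaled by the value of 1 read in normalized counts, 0.943 for the shared library and 1.06 for its partner at 22 h, and 1.13 and 0.882 in the DOX time table. The treatment and the individual library cannot be told apart here.

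miR-208a-5p was the member arm with the largest fold at 22 h. It had 985 reads (924.4 to 1048) in the shared library, 506 (462.9 to 552.1) in the 22 h partner and 1269 (1200 to 1341) in the 1 h partner. The scaled ratio of the shared library was 1.73 (1.55 to 1.93) to the 22 h partner and 0.998 (0.917 to 1.09) to the 1 h partner. All 4 lengths of the arm were higher in the shared library than in the 22 h partner after scaling. The form ending at base 29 had 658, 344 and 899 reads in the shared library, the 22 h partner and the 1 h partner. The forms ending at 28, 27 and 30 had 129, 119 and 79 reads in the shared library, 53, 57 and 52 in the 22 h partner and 170, 112 and 88 in the 1 h partner.

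miR-208a-3p did not follow its opposite arm. It had 2097 reads (2008 to 2189) in the shared library, 2202 (2111 to 2296) in the 22 h partner and 2014 (1927 to 2104) in the 1 h partner. The scaled ratio was 0.847 (0.797 to 0.899) to the 22 h partner and 1.34 (1.26 to 1.42) to the 1 h partner. The 5p arm accordingly made up 32.0% (30.3 to 33.6) of hsa-mir-208a reads in the shared library, 18.7% (17.2 to 20.2) in the 22 h partner and 38.7% (37.0 to 40.3) in the 1 h partner. All 3 intervals were separate. The 5p share of recovered reads was compared over 34 precursors with at least 100 such reads of each arm in each library. It was lower in the 22 h partner than in both others for 17 and higher for 6. The gap of hsa-mir-208a, 13.3 percentage points to the nearer library, was the widest of the 34 in that direction. For hsa-mir-208a, all 4 5p and 11 3p entries of the 22 h table had recovered reads. Other precursors may lack their abundant entries, so their 5p share can be that of minor entries only.

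miR-208b-3p was lower in the shared library than in either partner. It had 5849 reads (5700 to 6001) in the shared library, 7254 (7088 to 7423) in the 22 h partner and 8434 (8255 to 8616) in the 1 h partner. The scaled ratio was 0.717 (0.693 to 0.742) to the 22 h partner and 0.892 (0.862 to 0.922) to the 1 h partner. miR-208b-5p rested on 70, 55 and 97 reads, and its ratios of 1.13 (0.784 to 1.64) and 0.928 (0.672 to 1.27) both had intervals across 1. Without its leading entry the ratio to the 22 h partner was 0.65. The 5p arm made up 1.18% (0.923 to 1.49), 0.752% (0.567 to 0.978) and 1.14% (0.923 to 1.39) of hsa-mir-208b reads, with overlapping intervals. Of the 3p reads of both miR-208 precursors, miR-208a held 26.4% (25.4 to 27.4) in the shared library, 23.3% (22.4 to 24.2) in the 22 h partner and 19.3% (18.5 to 20.05) in the 1 h partner.

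miR-499a-3p had 2790 reads (2687 to 2895) in the shared library, 2584 (2485 to 2686) in the 22 h partner and 2582 (2483 to 2684) in the 1 h partner. The scaled ratio was 0.960 (0.910 to 1.01) to the 22 h partner and 1.39 (1.32 to 1.47) to the 1 h partner. Its entries went both ways at 22 h, with 1.16 (1.08 to 1.24) for the leading one from 70 to 89 and 0.713 over the other 3. For miR-499a-5p only the shortest entry, from base 34 to 46, had recovered reads, 28, 22 and 26 in the shared library, the 22 h partner and the 1 h partner. The abundant entries ending at 52 and 53 allowed 100 and 36 sets of whole reads. The main product of hsa-mir-499a therefore has a level per table but no value per library. The share of the longer form, ending at 53, was 29.1%, 26.6% and 28.2% of miR-499a-5p in the 1 h, 22 h and DOX time tables.

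**Figure D2:**
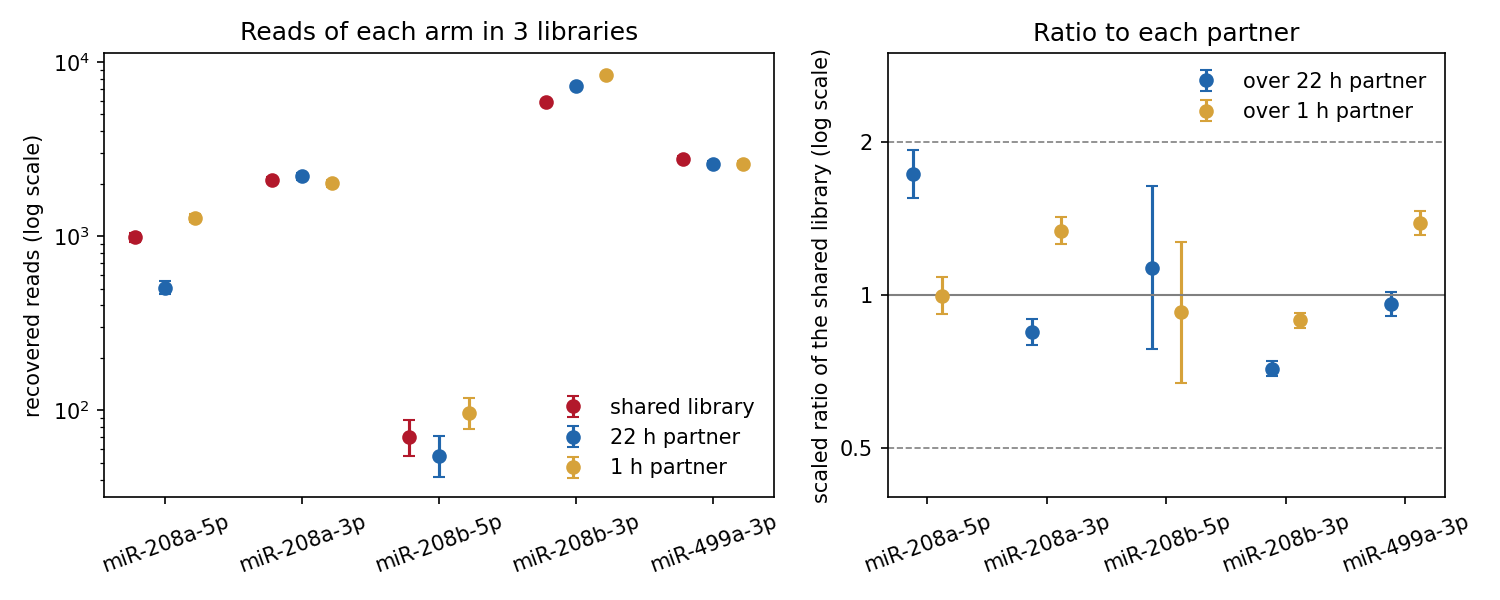
Left, recovered reads of 5 arms (log axis) in the shared library, the 22 h partner and the 1 h partner, with exact 95% Poisson intervals. Right, the scaled ratio of the shared library to each partner (log axis) with exact 95% intervals; dashed lines mark 2-fold. miR-208a-5p has the highest ratio to the 22 h partner, 1.73, and miR-208b-3p the lowest, 0.717.

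The arms were set against all others. Of 184 arms with at least 100 recovered reads in each library, 2 were past 2-fold between the shared library and the 22 h partner (1.09%), and 0 of the 4 member arms among them were. To the 1 h partner 0 of 184 arms were past 2-fold (0%). The ratio of miR-208a-5p to the 22 h partner was the 2nd highest of the 184. The highest was 2.18, the median 1.00 and the lowest 0.443. These ratios cover recovered entries only, so an arm with unresolved abundant entries is placed by its other entries. miR-208b-3p stood 14th from the lowest, miR-208a-3p 37th and miR-499a-3p 74th. To the 1 h partner, miR-499a-3p was the 8th highest, miR-208a-3p the 13th highest, miR-208a-5p the 86th highest and miR-208b-3p the 50th from the lowest, where the highest was 1.67, the median 0.990 and the lowest 0.642.

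Single entries were compared in the same way. Between the shared library and the 22 h partner, 2 of 34 member entries were past 2-fold, against 140 of 1216 entries in all (11.5%). They were miR-208a-5p 10 to 28, at 129 and 53 reads with a ratio of 2.16 (1.56 to 3.04), and miR-499a-3p 70 to 90, at 70 and 168 reads with a ratio of 0.371 (0.276 to 0.493). With a fold of 1.5, 11 of 34 member entries were past it (32.4%), against 373 of 1216 in all (30.7%), so their share no longer lay below that of all entries. The median ratio was 0.9505 over the member entries and 1.00 over all. Between the shared library and the 1 h partner, 7 of 39 member entries were past 2-fold, against 455 of 1788 (25.4%), 4 higher and 3 lower in the shared library. With a fold of 1.5 these were 12 of 39 (30.8%) and 719 of 1788 (40.2%). The median ratio was 1.06 over the member entries and 1.01 over all. The 7 past 2-fold were all low entries of the miR-208 precursors, and 3 of them had 0 reads in a library. miR-208a-3p 46 to 63 had 47 reads in the shared library and 27 in the 1 h partner, a ratio of 2.24 (1.37 to 3.74), and miR-208a-3p 46 to 60 had 18 and 48, a ratio of 0.482 (0.264 to 0.844). Among entries with 10 or more reads over both libraries, 4 of 35 member entries were past 2-fold (11.4%), against 114 of 1330 in all (8.57%), so the members' share no longer lay below that of all entries.

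**Figure D3:**
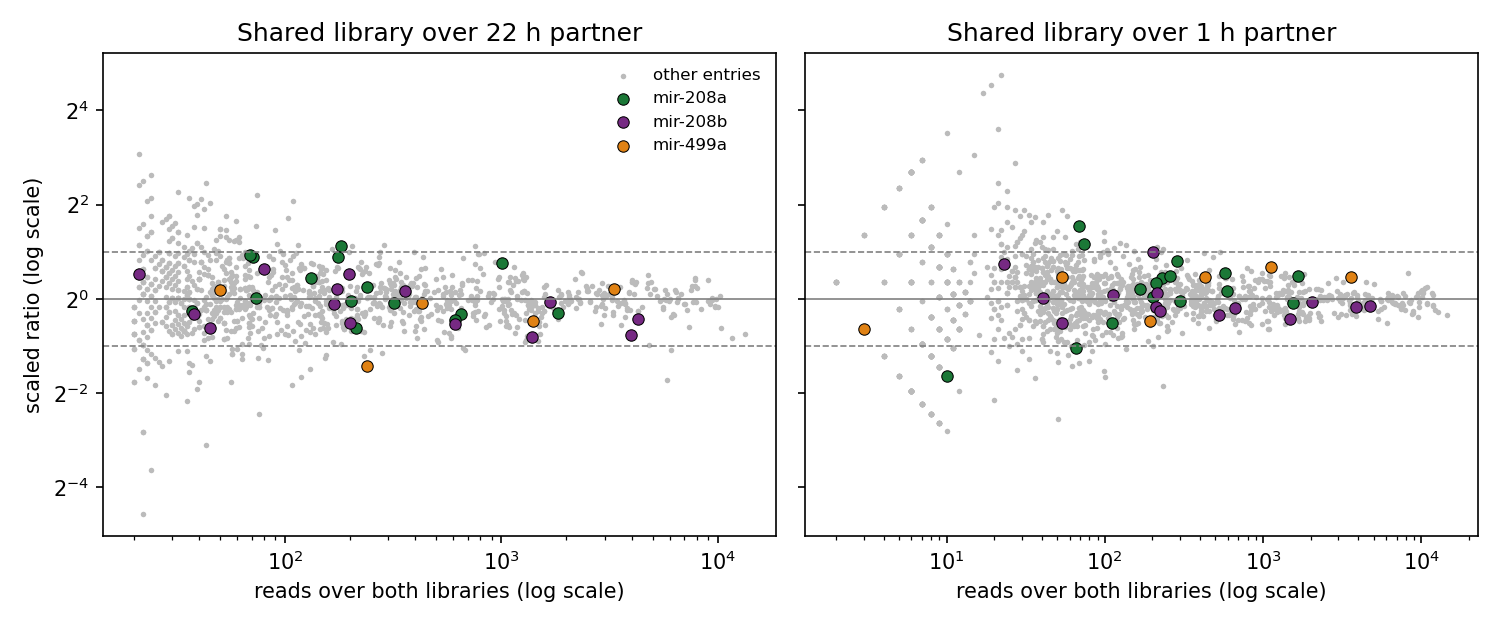
Scaled ratio of the shared library to the 22 h partner (left) and to the 1 h partner (right) against the reads over both libraries, both on log axes, for every entry with recovered reads. Dashed lines mark 2-fold, and entries at 0 reads in a library are not drawn. Member entries are coloured over the grey entries, and miR-499a-3p 70 to 90 is the lowest of them on the left at 0.371.

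The 5′ start separated the members. miR-499a-5p began at the shared run, at base 34, for 100% of its signal in each table, and an entry from base 32 to 49 was listed at 0. miR-208a-3p began at the run, at base 45, for 81.4%, 83.5% and 81.3% of its summed mean in the 1 h, 22 h and DOX time tables, and 1 base inside it, at 46, for 18.6%, 16.5% and 17.7%. miR-208b-3p instead began 1 base before the run, at base 46, for 55.5%, 53.04% and 55.9%, and at the run, at 47, for 44.5%, 46.96% and 44.1%. The start before the run was thus the larger form of miR-208b-3p in all 3 tables. Under hsa-mir-208a that start held 0.222% of the DOX time table's miR-208a-3p and had no entry in the others.

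That small hsa-mir-208a entry, from base 44 to 63, had 2 reads in the shared library and 8 in the 1 h partner.
miR-208a-3p, 44 to 63: tAAGACgagcaaaaggtttg
Counted from its own 5′ end, it differed from the leading miR-208b-3p entry by G9A alone over 20 bases and from the leading miR-208a-3p entry by G15A and T17C over 19 bases. By sequence it was thus nearer to the listed miR-208b, although it was listed under hsa-mir-208a.

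In the libraries, the start before the run made up 56.5% (55.2 to 57.8) of miR-208b-3p reads in the shared library, 50.6% (49.4 to 51.7) in the 22 h partner and 55.2% (54.2 to 56.3) in the 1 h partner. The 22 h partner was low and its interval was separate, while those of the other libraries overlapped. For miR-499a-3p, the later start at base 71 made up 30.4% (28.7 to 32.2), 37.8% (36.0 to 39.8) and 27.5% (25.7 to 29.2), again with the 22 h partner apart, here on the high side. For miR-208a-3p, the later start at 46 made up 17.1% (15.5 to 18.8), 16.0% (14.5 to 17.6) and 18.9% (17.2 to 20.7), and all 3 intervals overlapped. The mean start of recovered reads was compared over 68 arms with more than 1 start and at least 100 such reads in each library. It lay later in the 22 h partner than in both others for 29 and earlier for 25. Some of these arms may lack their abundant entries. Of the 3 member arms among the 68, miR-208b-3p and miR-499a-3p lay later and miR-208a-3p earlier, at a mean start of 45.16 against 45.17 in the shared library and 45.19 in the 1 h partner.

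**Figure D4:**
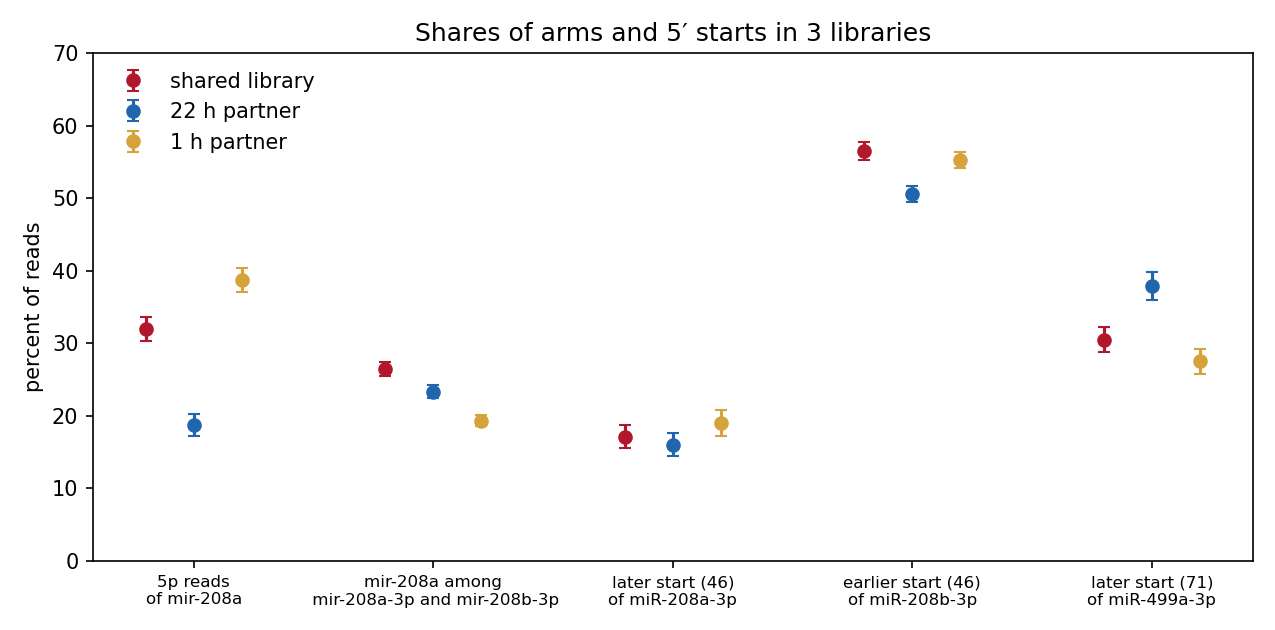
Percent of reads with exact 95% Clopper-Pearson intervals in the shared library, the 22 h partner and the 1 h partner, for the 5p arm of hsa-mir-208a, for miR-208a among the 3p reads of both miR-208 precursors, and for 1 start of each of 3 arms. The 22 h partner lies lowest for the 5p share of hsa-mir-208a (18.7%) and for the earlier start of miR-208b-3p (50.6%), and highest for the later start of miR-499a-3p (37.8%).

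The 3′ end moved with the 5′ start in miR-208b-3p and miR-499a-3p. Reads of miR-208b-3p that began at 46 ended mostly at 65, in 59.4% (57.7 to 61.03) of the shared library, 63.6% (62.1 to 65.2) of the 22 h partner and 60.5% (59.1 to 61.9) of the 1 h partner. Those that began at 47 ended mostly at 66, in 62.2% (60.2 to 64.1), 66.5% (65.0 to 68.1) and 60.5% (58.9 to 62.1). Both leading forms were 20 bases long, and 20 bases made up 60.6%, 65.1% and 60.5% of miR-208b-3p reads. miR-499a-3p showed the same shift. From base 70, 96.4% (95.5 to 97.2), 89.5% (87.9 to 91.0) and 93.4% (92.2 to 94.5) ended at 89, and from base 71, 74.0% (70.9 to 76.9), 78.7% (76.0 to 81.3) and 70.8% (67.3 to 74.1) ended at 90. In miR-208a-3p, by contrast, 64 was the most frequent end of both starts in the 3 libraries. From 45 this was 49.8% (47.4 to 52.2), 51.5% (49.2 to 53.8) and 48.9% (46.4 to 51.3), and from 46 it was 45.8% (40.6 to 51.1), 44.03% (38.8 to 49.4) and 31.8% (27.1 to 36.7). From 46 the end at 61 held 25.1% (20.7 to 29.97), 34.7% (29.7 to 39.9) and 29.7% (25.1 to 34.5), so the ends at 64 and 61 had overlapping intervals in both partners. Entries of 20 bases held 58.9% to 59.8% of all sequence signal in the 3 tables, and entries over 21 bases were absent, so lengths near that limit were not read as a property of the members.

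**Figure D5:**
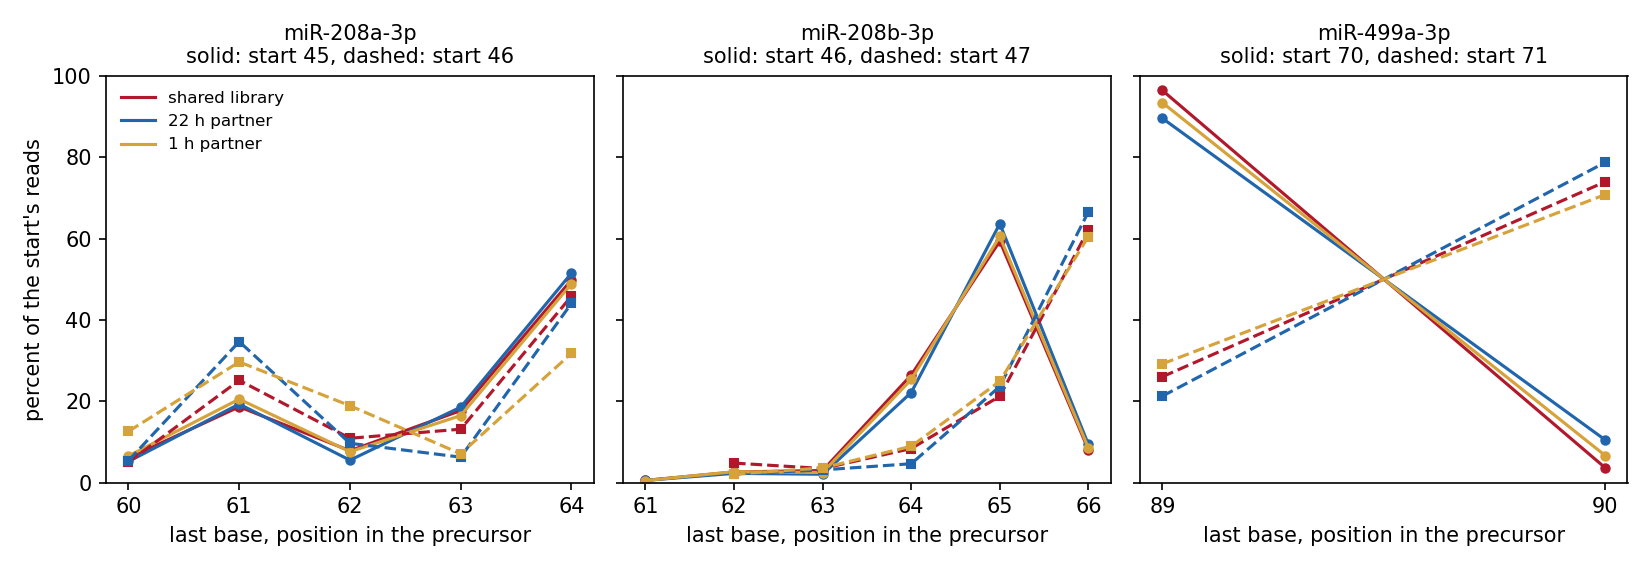
Percent of the reads of each 5′ start by their last base in the precursor, for miR-208a-3p, miR-208b-3p and miR-499a-3p; colours are the 3 libraries, and solid and dashed lines the earlier and the later start. The most frequent last base moves from 65 to 66 in miR-208b-3p and from 89 to 90 in miR-499a-3p with the start, and is 64 for both starts in miR-208a-3p, where 61 comes close from base 46 in the 1 h partner, at 29.7% against 31.8%.

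Shorter 3′ ends were most frequent in miR-208a-3p. From base 45, the reads ending at 64, 63, 62, 61 and 60 numbered 866, 308, 136, 324 and 105 in the shared library, 952, 343, 102, 357 and 96 in the 22 h partner, and 798, 269, 124, 335 and 107 in the 1 h partner. Reads ending at 61 thus formed a second peak, 18.6%, 19.3% and 20.5% of this start, above those ending at 62. They include 48, 23 and 21 reads of a form whose last base differs from the leading entry (T17A, below). Without that form, 276, 334 and 314 reads ended at 61, still above those ending at 62. From base 46 the ends at 64, 63, 62, 61 and 60 had 164, 47, 39, 90 and 18 reads in the shared library, 155, 22, 34, 122 and 19 in the 22 h partner, and 121, 27, 72, 113 and 48 in the 1 h partner. The second peak at 61 was present in this start as well. In miR-208b-3p, reads from base 46 that ended at 66, 65, 64, 63, 62 and 61 numbered 268, 1961, 873, 98, 86 and 18 in the shared library, 344, 2334, 812, 75, 83 and 20 in the 22 h partner, and 396, 2818, 1181, 115, 125 and 23 in the 1 h partner. From base 47, those ending at 66, 65, 64, 63 and 62 numbered 1582, 540, 213, 88 and 122, then 2386, 847, 166, 112 and 75, and then 2284, 940, 337, 136 and 79. Those ending at 64 include 13, 8 and 10 reads of a form with T17A and T18A, described below. The counts fell off from the leading end with no second peak as large as that of miR-208a-3p. The 4 entries of miR-499a-3p, from 70 to 89, 70 to 90, 71 to 90 and 71 to 89, had 1871, 70, 628 and 221 reads in the shared library, 1438, 168, 770 and 208 in the 22 h partner, and 1749, 124, 502 and 207 in the 1 h partner. miR-208b-5p had 51, 29 and 62 reads ending at 31 and 19, 26 and 35 ending at 32.

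A few entries carried an A in place of the listed sequence at their 3′ end. Relative to the leading miR-208a-3p entry, the form from 45 to 61 with T17A had 48 (35.4 to 63.6), 23 (14.6 to 34.5) and 21 (13.0 to 32.1) reads in the shared library, the 22 h partner and the 1 h partner. Its scaled ratios were 1.86 (1.11 to 3.197) and 2.94 (1.73 to 5.17), so the shared library was high. For miR-208b-3p, the form from 47 to 64 with T17A and T18A relative to the entry from 47 to 66 had 13, 8 and 10 reads. The forms from 46 to 64 with T18A and T19A, from 46 to 63 with T18A and from 46 to 62 with G16A and T17A, relative to the entry from 46 to 66, had means of 5.54, 9.39 and 2.83 normalized counts in the DOX time table alone. The last of these had 5 reads in the shared library and 0 in the 1 h partner. Other entries of the DOX time table alone stood at 12.98 and 3.40 normalized counts for miR-208a-3p from base 47, 2.20 for miR-208b-3p 46 to 60, and 12.2 and 1.45 for miR-499a-3p from base 70 to 85 and to 83. Of the 50 entries, 35 had a mean above 0 in all 3 tables and 9 in the DOX time table alone. Another 1 had it in the 22 h and DOX time tables, and 1 was listed at 0. The last 4 were listed at 1 h with a mean whose decimal mark could not be restored. They were a second miR-208a-5p form from 10 to 30, miR-499a-5p 34 to 54, and miR-499a-3p 70 to 87 and 71 to 87. The 1 h levels and shares leave these 4 out, and the size of their signal is unknown.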

How the data were processed

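Small RNA from isolated guinea pig ventricular cardiomyocytes was sequenced by the authors, who processed the reads with the BaseSpace Small RNA app and miRDeep against human sequences and compared groups with DESeq2 (version not given in the sources used here). The submitters' processing notes name hg19, FastQC and MultiQC. The deposited values used here are a signal, the authors' mean over both groups of reads divided by size factors. The other columns of the tables hold the authors' own fold changes, their standard errors, p-values, adjusted p-values and a split of the mean by the fold change, and none was used. In the 1 h and 22 h tables the decimal mark of the means had been lost in the deposited files, and its place was restored by matching each entry to its mean in the DOX time table, for 1506 of 1610 and 1323 of 1335 rows. Restored member means lay within 1.57-fold and 1.69-fold of it. At 1 h the restored power is uncertain for 15 low entries under 10 normalized counts, none of them a member.

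From the means, entries were summed by precursor and arm, without those whose decimal mark could not be restored. Reads were recovered as whole numbers within 1e-05 of the step, jointly over the tables that include DOX 22 h, and were used only where 1 solution was possible. The recovery was tested on simulated data, with a coarser step at 22 h than the one found here and with no decimal mark to restore. The depth of whole libraries is unknown, since abundant entries were not resolved. With 1 library a side no test was run, and "past 2-fold" means a scaled ratio of 2 or more in either direction. The labels give 3 libraries a group, and replicates 2 and 3 have no values per library here.

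Every member entry was counted and named where it led its arm, held at least 5% of it, began at another start with at least 1% of it, or had recovered reads, which took in 41 of 50 entries. The members and lists were chosen with earlier results of these data known. Alternatives covered entry filters, scaling, pseudocount and fold. Python 3.11.15, numpy 2.4.6, scipy 1.17.1 and matplotlib 3.10.9 were used.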

Additional observations from a re-analysis of the deposited data

Results flagged for a closer look

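Some rows of the tables bear a mature miRNA name without a sequence, and the rule for members leaves them out. Among those named after the members, hsa-miR-499a-5p had a mean of 17.6 normalized counts in the DOX time table and of 13.0 in the 1 h table. It is given here as signal outside the entries compared, above the floor of 3 normalized counts set for such rows. Its mean in the DOX time table allowed 5 sets of whole reads, so it has no value per library. The rows of hsa-miR-208a-3p, hsa-miR-208a-5p, hsa-miR-208b-3p, hsa-miR-208b-5p and hsa-miR-499a-3p were listed at 0 in that table. Which reads the row of hsa-miR-499a-5p holds was not tested.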

How the results depend on the processing

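The order of the members, mir-499a, mir-208b and mir-208a, was the same by the most abundant entry in the 3 tables, while 2 of 9 ranks among all precursors were. The ranks in the 1 h, 22 h and DOX time tables became 4, 2 and 4 for hsa-mir-499a. They became 73, 64 and 66 for hsa-mir-208b and 100, 84 and 90 for hsa-mir-208a. To 3 digits, levels kept their value for 17 of 18 arm and table pairs with means of at least 10 only and for 16 of 18 with entries found in all 3 tables only. By construction, all 18 moved with the most abundant entry only and with a total without mir-143. Shares of arms and starts kept their value in 14 of 18 cases with the first filter and 12 of 18 with the second, and leaving out sequences under another precursor removed 0 entries. Scaling by the total of recovered reads gave ratios within the counting interval for 11 of 12, the exception being miR-208b-3p to the 22 h partner at 0.748. Adding 0.5 to the reads left 12 of 12 within it. Asking for at least 10 reads removed none of the entries summed in these ratios, all with reads in 3 libraries. Leaving out the most abundant entry of an arm, an alternative chosen after seeing the data, gave 0.65 for miR-208b-5p and 0.713 for miR-499a-3p to the 22 h partner and 1.14 for miR-208a-5p to the 1 h partner, and 7 of 10 stayed within the interval. The cause was not tested. With a fold of 1.5 in place of 2, 11 of 34 member entries (32.4%) and 373 of 1216 in all (30.7%) were past it to the 22 h partner, where the members' share had been lower at 2-fold (5.88% against 11.5%). To the 1 h partner these were 12 of 39 (30.8%) and 719 of 1788 (40.2%). With at least 10 reads over both libraries, the counts to the 1 h partner were 4 of 35 and 114 of 1330, against 7 of 39 and 455 of 1788, so the members' share went from below that of all entries to above it. Centring on the median changed the counts to 137 and 453 of all entries. Leaving out a replicate was not run, since each recovered side is 1 library. No paired analysis was possible because the tables give no values per library for replicates 2 and 3. Depth limits miR-208b-5p, with 70, 55 and 97 reads, and the abundant forms of miR-499a-5p have no reads per library.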
